A study of Mus musculus with 30 samples.

Results

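Transcripts of 10 transcription factor genes that pattern the limb, the digit and the nail were followed in the regenerating mouse digit tip. The genes were Msx1, Msx2, Lhx2, Lmx1b, Prrx1, Twist1, Dlx3, Foxn1, Tbx4 and Pitx1. They were chosen by gene symbol, with earlier results of these data known, and all 10 were found among the 20321 genes of the deposited tables. All 10 also passed the filter on low counts, which kept 13793 genes for testing. RNA-seq was done on the amputated distal phalanx of digit 3 of the hindlimb, from 30 adult male C57Bl/6 mice of 9 to 10 weeks, each with up to 33% of the phalanx removed. Digits were collected from 3 mice each at 0 h, 3 h, 6 h, 12 h and 24 h after amputation, from 3 mice each on days 3, 14 and 21, and from 6 mice on day 7. Every mouse was amputated, carried no engineered allele and received no other treatment that the labels name, so the 0 h digits are the baseline. Each library is the whole digit tip of 1 mouse, in which skin, nail, bone and connective tissue are measured together.

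These genes fall into groups by what they are known to do. Prrx1 and Twist1 encode a paired-related homeodomain protein and a basic helix-loop-helix protein of limb mesenchyme. Msx1 and Msx2 encode homeodomain repressors of the distal limb, expressed in the mesenchyme under the nail, and Msx1 is required for regrowth of the fetal mouse digit tip. Tbx4 and Pitx1 encode the T-box and homeodomain factors of hindlimb identity, with Pitx1 acting upstream of Tbx4. Lmx1b and Lhx2 encode LIM-homeodomain proteins. Lmx1b sets dorsal limb identity and is mutated in nail-patella syndrome, and Lhx2 acts in limb outgrowth and in hair follicle progenitors. Dlx3 and Foxn1 act in the epithelium, where Dlx3 drives epidermal and hair differentiation and Foxn1, the gene lost in nude mice, is needed for hair shafts and nail plates.

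Total expected counts per library ran from 3167625 to 16277816, with a median of 6103688. The date written in each sample's title falls in July to August for 16 mice and in November to January for 14, and the sources do not say what that date marks. Median totals were 5083528 and 9836324 in these periods. The 3 h and 12 h mice were all from July to August and the 21 d mice all from November to January, so at these times period and time cannot be told apart. The labelled tissue was checked against gene markers. Hoxd13, a gene of the distal limb, was present in all 30 libraries at a mean of 17.5 TPM (a unit scaled for gene length and library size), and Tbx5, the T-box gene of the forelimb, averaged 1.29 TPM against 4.69 TPM for Tbx4. Hoxa13, the other distal gene checked, averaged 4.79 TPM and was at 0 in 3 libraries. Summed TPM of 12 keratinocyte markers were between 34030 and 89480. Mouse 3 of the 3 h group had the smallest library of all and the lowest TPM of the 30 mice for 6 of the 10 genes. The highest keratinocyte sum, 89480, was also from this mouse. The part of either in its low values was not tested.

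**Figure D1:**
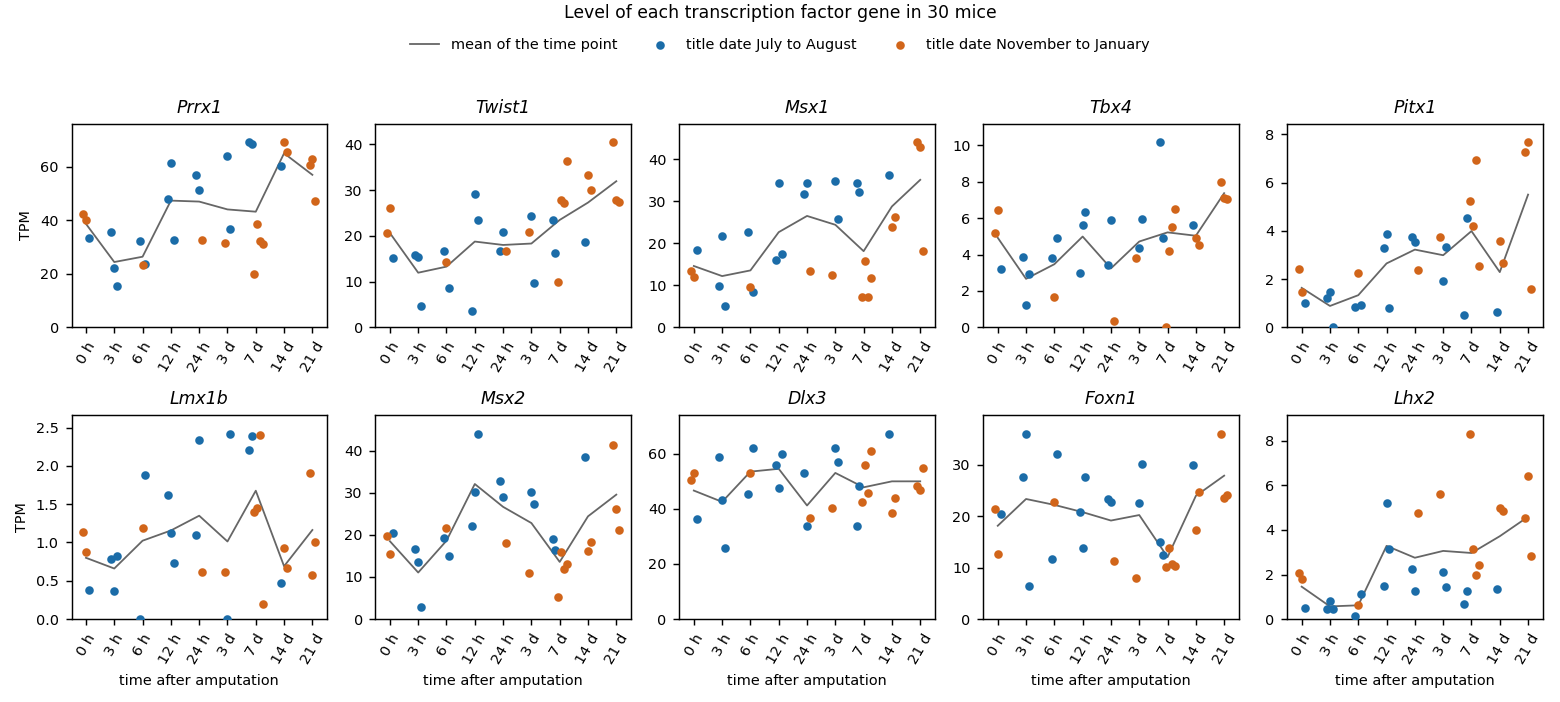
TPM of each of the 10 genes (vertical axes, each starting at 0) against time after amputation (horizontal axes, not to scale) in 30 mice. Points are mice coloured by the period of the date in the sample title, and the line joins the means of the 9 time points. Prrx1 rose to a mean of 65.0 TPM at 14 d and Dlx3 stayed between means of 41.3 and 54.6 TPM.

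On the TPM scale Dlx3 and Prrx1 were the most abundant, with means over the 30 mice of 48.7 TPM and 43.6 TPM. Msx1 with 21.4 TPM, Msx2 with 21.1 TPM, Twist1 with 20.7 TPM and Foxn1 with 20.0 TPM were close together. Tbx4 with 4.69 TPM, Pitx1 with 2.85 TPM, Lhx2 with 2.60 TPM and Lmx1b with 1.121 TPM were low. In the order of the 9 time point means, the 3 h digits were lowest for 8 of the 10 genes, all but Dlx3 and Foxn1, and the 21 d digits were highest for 6, namely Msx1, Lhx2, Twist1, Foxn1, Tbx4 and Pitx1. These orders were not computed for all genes tested, so neither count is shown to be particular to the 10 genes. The first count rests on single libraries. Without mouse 3 of 3 h it was 4 (Lhx2, Lmx1b, Tbx4 and Pitx1) and without mouse 1 of 6 h it was 5, while the second count stayed between 5 and 7 with any 1 mouse left out. Neighbours in these orders overlapped in their mice in all but 1 of 80 pairs, the exception being Prrx1 at 0 h above 6 h. At the ends of the orders, the mice of the highest and lowest time points still overlapped for Msx1, Lmx1b and Dlx3. For the other genes a lack of overlap is partly built in, since these time points were picked as the extremes. The share over all genes tested was not computed. Dlx3 varied least, with a coefficient of variation over the 30 mice of 20.6%, and Lhx2 most, with 80.1%.

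A joint test asked whether a gene changed anywhere among the 9 time points. It is edgeR's quasi-likelihood F-test over all 30 mice, with Benjamini-Hochberg adjustment over all genes tested. Prrx1 passed at 0.05, with an adjusted p of 0.0180, and it was the only 1 of the 10 genes to do so. Of all genes tested, 9.01% passed this test. The adjusted p of the next genes were 0.116 for Msx2, 0.150 for Lhx2 and 0.161 for Msx1, and those of the other 6 lay between 0.236 and 0.992. A second comparison set the 12 late mice (7 d, 14 d and 21 d) against the 15 early mice (0 h to 24 h), with each time point given equal weight and 3 d left out. In it Prrx1, Lhx2 and Twist1 were higher late, 3 of 10 genes, and none was lower, where 13.7% of all genes tested passed and 8.70% passed as higher. The median log2 fold change of the 10 genes was 0.62 and that of all genes tested was -0.00. Because the 10 genes were chosen with earlier results of these data known, these contrasts with all genes are a description only. In whole digits, fewer cells of a type and less RNA per cell cannot be told apart. The p-values measure the spread between these mice.

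Prrx1, on the minus strand at chr1:163245119-163313710 (GRCm38), was the gene that passed over the time course. Its TPM at 0 h were 42.5, 40.0 and 33.5. They were 35.7, 22.3 and 15.3 at 3 h, and 32.2, 23.1 and 23.9 at 6 h. All 3 mice of 6 h were thus below all 3 of 0 h. At 12 h Prrx1 stood at 48.0, 61.3 and 32.7 TPM, at 24 h at 56.9, 51.2 and 32.8 TPM, and at 3 d at 31.5, 64.1 and 36.6 TPM. These mid-course mice spread over a range that held the 0 h values. The 6 mice of 7 d had a lowest value of 20.0, a median of 35.4 and a highest of 69.2 TPM. At 14 d the values were 60.4, 69.1 and 65.6 TPM, and at 21 d they were 60.7, 62.8 and 47.3 TPM. Every mouse of 14 d and 21 d was above every mouse of 0 h, 3 h and 6 h. The late mice averaged 52.1 ± 17.5 TPM (SD, n = 12) and the early mice 36.8 ± 13.3 TPM (SD, n = 15), with 5 late mice above the highest early mouse. The log2 fold change was 0.61 (SE 0.14, 95% interval 0.32 to 0.90), with an adjusted p of 0.00322 in edgeR's quasi-likelihood test. This call held in each of 30 fits that left out 1 mouse, with values of 0.57 to 0.69. The call over the time course ended without mouse 3 of 6 h (adjusted p 0.0556), without the 21 d mice (0.0674) and with limma on log2(TPM + 1) (0.0838) or log2(TPM + 0.1) (0.0950).

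Twist1, at chr12:33957671-33959829 on the plus strand, was also higher late. Its TPM at 0 h were 20.6, 26.0 and 15.3, at 3 h 15.9, 15.4 and 4.58, and at 6 h 16.8, 14.4 and 8.70. At 12 h they were 3.63, 29.2 and 23.5, at 24 h 16.6, 20.8 and 16.6, and at 3 d 20.9, 24.3 and 9.76. The 12 h mice held both the lowest value of the series and the highest early value. At 7 d the lowest, median and highest values were 9.88, 25.3 and 36.3 TPM, at 14 d the mice stood at 18.6, 33.2 and 30.0 TPM, and at 21 d at 40.5, 27.9 and 27.4 TPM. All 3 mice of 21 d were above all 3 of 0 h. The late mice averaged 26.5 ± 8.57 TPM (SD, n = 12) against 16.5 ± 7.13 TPM (SD, n = 15), and 10 of 12 late mice were above the early median. The log2 fold change was 0.77 (SE 0.24, 95% interval 0.27 to 1.27, adjusted p 0.0335 in edgeR's test). The call ended in 7 of 30 fits that left out 1 mouse (mouse 3 of 0 h, 3 h, 6 h and 14 d, mouse 2 of 14 d, mouse 6 of 7 d and mouse 1 of 21 d), with adjusted p up to 0.0863. It also ended without the left feet (log2 fold change 0.72, adjusted p 0.0549), without 21 d (0.62, adjusted p 0.175) and with limma on log2(TPM + 0.1) (0.84, adjusted p 0.0559).

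Lhx2, at chr2:38339281-38369733 on the plus strand, had a low level and, without the title-date period in the fit, the largest late to early log2 fold change of the 10 genes. With the period in the fit, Msx1, Tbx4 and Prrx1 exceeded Lhx2, and Twist1 was about level with it, at 0.47 against 0.46. In time order, the Lhx2 levels were as follows. Lhx2 stood at 2.05, 1.8 and 0.51 TPM at 0 h, at 0.44, 0.79 and 0.47 TPM at 3 h, and at 0.12, 0.62 and 1.1 TPM at 6 h. At 12 h the values were 1.48, 5.23 and 3.15 TPM, at 24 h 2.23, 1.28 and 4.75 TPM, and at 3 d 5.62, 2.13 and 1.43 TPM. All mice of 12 h, 24 h and 3 d were above all mice of 3 h and 6 h. At 7 d the lowest, median and highest were 0.66, 2.21 and 8.32 TPM. At 14 d the mice were at 1.33, 4.99 and 4.84 TPM, and at 21 d at 4.54, 6.43 and 2.81 TPM. The late mean was 3.56 ± 2.31 TPM (SD, n = 12) and the early mean 1.74 ± 1.56 TPM (SD, n = 15). The log2 fold change was 1.45 (SE 0.41, 95% interval 0.62 to 2.29) with an adjusted p of 0.0156 in edgeR's test, and 4 of the 30 libraries held 3 counts or fewer of Lhx2. The call held in each of 30 fits that left out 1 mouse and ended without the left feet (log2 fold change 1.03, adjusted p 0.0808) and without 21 d (1.27, adjusted p 0.0821).

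The sequences around the starts of these 3 genes and of Msx1, whose result turned on the title-date period, are shown because these are the genes that passed a test. Each runs 5′ to 3′ along the gene's strand from 250 bases before to 50 bases after the start given by RefSeq (GRCm38.p6). The set of promoter windows used here held 8 of the 10 genes, all but Dlx3 and Pitx1. The windows are chr1:163313601-163313900 (minus), chr12:33957421-33957720 (plus), chr2:38339031-38339330 (plus, the first of the 2 Lhx2 starts) and chr5:37824536-37824835 (minus). Capitals mark, on either strand, the letters CCAAT known as a promoter box, the TATA box letters TATAAA, the Sp1-type box GGGCGG, and the homeodomain cores, which are TAATTA or its variant TAATTG, and no marked run overlaps another in these 4 windows.
Prrx1: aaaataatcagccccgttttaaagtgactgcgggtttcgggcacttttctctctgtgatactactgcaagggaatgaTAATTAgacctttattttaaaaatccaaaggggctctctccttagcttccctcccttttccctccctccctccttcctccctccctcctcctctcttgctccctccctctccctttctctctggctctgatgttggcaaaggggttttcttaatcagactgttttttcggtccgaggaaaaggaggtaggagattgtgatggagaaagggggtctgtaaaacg
Twist1: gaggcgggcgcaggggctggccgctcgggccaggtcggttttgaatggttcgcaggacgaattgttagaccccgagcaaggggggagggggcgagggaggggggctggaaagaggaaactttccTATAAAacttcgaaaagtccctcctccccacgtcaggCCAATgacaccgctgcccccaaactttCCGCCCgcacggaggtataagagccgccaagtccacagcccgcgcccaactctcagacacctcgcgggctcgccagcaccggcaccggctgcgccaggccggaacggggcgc
Lhx2: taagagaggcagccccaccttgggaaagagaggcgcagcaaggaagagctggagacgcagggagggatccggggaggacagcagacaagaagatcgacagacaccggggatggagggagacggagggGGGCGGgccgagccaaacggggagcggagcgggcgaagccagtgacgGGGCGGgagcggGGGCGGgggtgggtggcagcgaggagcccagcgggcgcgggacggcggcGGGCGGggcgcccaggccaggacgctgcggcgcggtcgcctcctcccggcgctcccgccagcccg
Msx1: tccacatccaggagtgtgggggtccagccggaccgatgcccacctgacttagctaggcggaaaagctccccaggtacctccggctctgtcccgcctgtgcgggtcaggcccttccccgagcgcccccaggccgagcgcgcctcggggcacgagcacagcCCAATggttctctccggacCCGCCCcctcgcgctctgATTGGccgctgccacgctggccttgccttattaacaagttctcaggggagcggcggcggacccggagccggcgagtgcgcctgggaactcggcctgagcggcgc
The Prrx1 window held 1 TAATTA, the core bound by many homeodomains, which is found in 5.29% of 32851 promoter windows of the same length. It is 47.7% G and C with a CpG observed to expected ratio of 0.360, beside a median over all windows of 52.7% and 0.384. The Lhx2 window is 74.7% G and C with a ratio of 0.885 and held 4 GGGCGG boxes, the kind of box in 35.7% of windows. Twist1 held 1 TATAAA, 1 CCAAT and 1 GGGCGG, and TATAAA is in 13.6% of windows. Msx1 held 2 CCAAT, which 37.4% of windows hold, and 1 GGGCGG box. The variant TAATTG, in 8.0% of all windows, was in none of the windows of the 8 genes. The E-box letters CANNTG, which were not capitalised, are in 72.3% of windows, and the Prrx1, Twist1 and Lhx2 windows shown held none. These are matches of letters and say nothing of binding.

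Msx1, at chr5:37820485-37824583 on the minus strand, followed Prrx1 in outline but with a wider spread. Its TPM were 13.4, 12.1 and 18.3 at 0 h, 9.77, 21.7 and 5.20 at 3 h, and 22.7, 9.60 and 8.42 at 6 h. They were 16.1, 34.3 and 17.6 at 12 h, 31.8, 34.3 and 13.4 at 24 h, and 12.5, 34.9 and 25.9 at 3 d. The 12 h to 3 d mice reached values above every 0 h mouse and also fell among them. At 7 d the lowest, median and highest were 7.22, 13.9 and 34.4 TPM. At 14 d the mice stood at 36.3, 23.9 and 26.2 TPM and at 21 d at 44.1, 43.1 and 18.2 TPM. All 14 d mice were above all 0 h mice. The late to early log2 fold change was 0.63 (SE 0.24, 95% interval 0.14 to 1.1), with an adjusted p of 0.0778 in edgeR's test. It passed in 4 of 30 fits that left out 1 mouse (mouse 2 of 3 h, mouse 1 of 6 h, mouse 3 of 7 d or mouse 3 of 21 d), with values of 0.67 to 0.77. Without the 21 d mice the log2 fold change was 0.37, with an adjusted p of 0.439 in edgeR's test.

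The period of the title date went with the levels of 2 of the 10 genes, a count near the share of all genes tested. With time in the fit, November to January mice had more Lhx2 than July to August mice by 1.84 on the log2 scale (SE 0.39, adjusted p 0.000825 in edgeR's test) and less Msx1, with a log2 difference of -0.87 (SE 0.23, adjusted p 0.00502), and these were the 2 of the 10 genes that passed, where 24.1% of all genes tested did. At 7 d, the only time with several mice of each period, the 2 July to August mice and the 4 November to January mice did not overlap for 4 of the 10 genes, and the same was so for 44.7% of all genes tested, so that this count is near the background. Msx1 was at 32.2 and 34.4 TPM in the former and at 7.22 to 15.9 TPM in the latter, and Prrx1 at 68.3 and 69.2 TPM against 20.0 to 38.7 TPM. Msx2 was at 16.5 and 19.0 TPM against 5.13 to 15.9 TPM. Lhx2 went the other way, with 0.66 and 1.25 TPM against 2.0 to 8.32 TPM. The 7 d mice of November to January also include the 3 left feet of the series, all others being right feet.

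With the period as a covariate, Prrx1 stayed higher late, with a log2 fold change of 0.75 (SE 0.15, 95% interval 0.45 to 1.05, adjusted p 0.000619 in edgeR's test). Msx1 passed as well, with 1.03 (SE 0.22, 95% interval 0.59 to 1.48, adjusted p 0.00136). This fit takes the period difference as equal at all times, also at 21 d, where all mice were from November to January. Lhx2 no longer passed, with 0.46 (95% interval -0.32 to 1.25, adjusted p 0.494), nor did Twist1, with 0.47 (95% interval -0.08 to 1.0, adjusted p 0.283). In this fit 12.8% of all genes passed late against early and 12.2% over the time course, where Prrx1 (adjusted p 0.00416) and Msx1 (0.00509) passed. Within a period, where 7 d and 14 d can be set against 0 h, 6 h and 24 h, the log2 fold change of Prrx1 was 0.78 in July to August (SE 0.22, adjusted p 0.0593) and 0.32 in November to January (SE 0.20, adjusted p 0.411). None of the 10 genes passed in either period by edgeR's test, 1 and 0 of them having an unadjusted p under 0.05, where 2.91% and 6.59% of all genes tested passed. The difference between the periods passed for none of them either, with 0 at an unadjusted p under 0.05 and 0 genes in all called. At the same matched times the log2 fold change of Msx1 was 0.69 in July to August and 0.26 in November to January. Some of these times held 1 mouse of a period. Lhx2 averaged 1.1 TPM in the 3 late and 1.53 TPM in the 11 early mice of July to August. In November to January it averaged 4.39 TPM in the 9 late and 2.31 TPM in the 4 early mice. The times in these means differ between the phases and periods, and at matched times the fitted log2 fold change of Lhx2 was 0.46 in July to August (SE 0.71, adjusted p 0.847) and 1.123 in November to January (SE 0.57, adjusted p 0.275). Twist1 stood at 19.4 and 15.5 TPM in the former and at 28.9 and 19.4 TPM in the latter, with fitted values of 0.29 (SE 0.49, adjusted p 0.859) and 0.47 (SE 0.42, adjusted p 0.590).

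**Figure D2:**
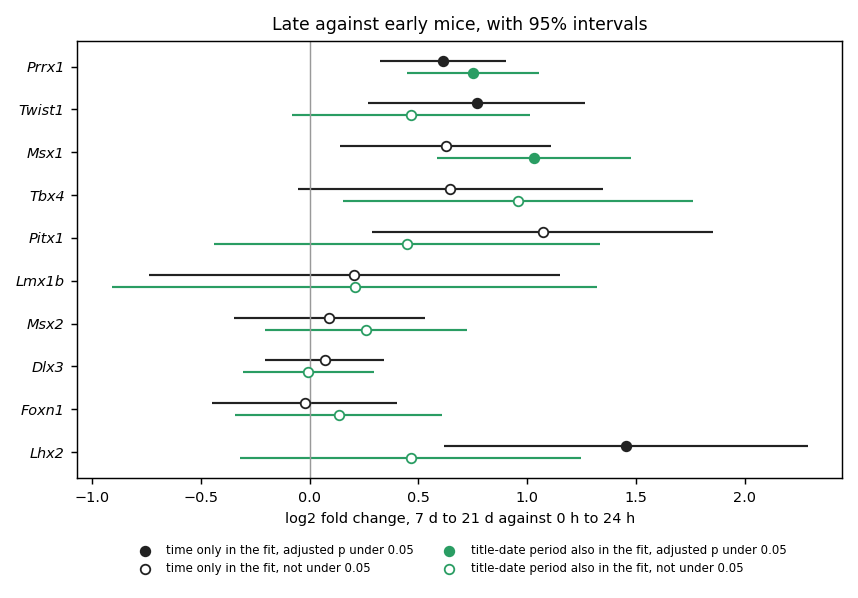
Log2 fold change of late (7 d to 21 d) against early (0 h to 24 h) mice, with 95% intervals, for the 10 genes, without (black) and with (green) the title-date period in the fit. Filled points have an adjusted p under 0.05. Prrx1 is filled in both fits, at 0.61 and 0.75, Lhx2 and Twist1 only without the period, and Msx1 only with it.

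The hindlimb factors Tbx4 and Pitx1 did not pass late against early. Pitx1 had a log2 fold change of 1.1 (SE 0.38, 95% interval 0.29 to 1.86) with an adjusted p of 0.0598 in edgeR's test, falling to 0.45 with the period in the fit (adjusted p 0.571). It passed in 5 of 30 fits that left out 1 mouse (mouse 2 of 3 h, mouse 2 of 6 h, mouse 1 of 7 d, mouse 1 of 14 d or mouse 3 of 21 d), with values of 1.15 to 1.24. Its 15 early mice ran from 0 to 3.86 TPM and 6 of 12 late mice were above them, the 21 d mice being at 7.26, 7.68 and 1.58 TPM. In part the Pitx1 row is uncertain, since 273 of its 2656 exon bases overlap exons of 2 other annotated genes, 1 of them antisense, and strand was not stated to be used in counting. Tbx4 had a log2 fold change of 0.65 (SE 0.34, 95% interval -0.05 to 1.35, adjusted p 0.219). With the period in the fit it was 0.96 (95% interval 0.16 to 1.76, adjusted p 0.111). Its tightest group was 21 d, at 7.97, 7.11 and 7.03 TPM, above all 3 mice of 0 h at 5.17, 6.42 and 3.18 TPM. Mouse 3 of 7 d was at 0.02 TPM for Tbx4, and without it Tbx4 passed, with a log2 fold change of 0.73 (adjusted p 0.0403). That library had the fewest genes with a count of all 30, 12199, at a total of 6046501 counts. Lmx1b was near the limit of detection, with 3 of 30 libraries at 3 counts or fewer and 0 to 52 counts per library, and its late to early log2 fold change of 0.21 had a 95% interval of -0.74 to 1.15.

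Of the genes acting in nail and epidermis, Dlx3 was the steadiest. It ran from 25.9 to 67.3 TPM over the 30 mice, its 9 means differed by at most 1.32-fold, and its late to early log2 fold change was 0.07 (SE 0.13, 95% interval -0.20 to 0.34). Foxn1 averaged 19.0 ± 8.53 TPM (SD, n = 12) late and 20.7 ± 8.28 TPM (SD, n = 15) early, a log2 fold change of -0.02 (95% interval -0.45 to 0.40). Within the late digits it was lowest at 7 d, with values of 10.1 to 14.98 TPM and a median of 11.6 TPM in 6 mice. It then stood at 29.9, 17.2 and 24.8 TPM at 14 d and at 36.0, 23.5 and 24.1 TPM at 21 d. All mice of 14 d and 21 d were above all 6 mice of 7 d. The step from 7 d to 14 d had a log2 fold change of 0.98 (95% interval 0.23 to 1.72, adjusted p 0.258 in edgeR's test). Msx2 had its highest mean at 12 h, with 22.1, 30.2 and 44.0 TPM, and a median of 14.5 TPM at 7 d. It stood at 38.6, 16.3 and 18.3 TPM at 14 d and at 41.5, 26.2 and 21.1 TPM at 21 d, and every 21 d mouse was above every 7 d mouse. Its late to early log2 fold change was 0.09 (95% interval -0.35 to 0.53).

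Against the 0 h digits, none of the 10 genes passed at any of the 8 later times. Of these 80 tests, 0 passed in edgeR and 0 in DESeq2. In edgeR 5 (6.25%) had an unadjusted p under 0.05, all at 14 d or 21 d, where 9.16% of the same tests over all genes did. At 21 d this was so for 4 of the 10 genes and for 1272 of all 13793 genes tested. At 14 d it was so for 1 of the 10 and for 1229 of all genes. The share of all genes that passed was 0.254% at 3 h, 0.189% at 6 h, 0.167% at 12 h, 0.493% at 24 h, 0.551% at 3 d, 2.34% at 7 d, 1.61% at 14 d and 1.94% at 21 d. At 3 h, 9 of the 10 log2 fold changes were below 0 and at 21 d all 10 were above 0, comparisons that share the 0 h mice. The shares of all genes tested with these signs were not computed, so a general shift cannot be told from one of these genes. The smallest adjusted p was that of Msx1 at 21 d, 0.223, with a log2 fold change of 1.38 (SE 0.49, 95% interval 0.38 to 2.39). With the title-date period in the fit this 1 comparison passed, with a log2 fold change of 1.66 (SE 0.40, adjusted p 0.0143), where 2.89% of all genes passed. All 21 d mice were from November to January, so this value rests on a period difference taken from other times. Between successive times, 0 of 70 tests passed in edgeR and in DESeq2, with 5 (7.14%) at an unadjusted p under 0.05 in edgeR, near the 7.91% of the same tests over all genes. Of all genes, 0.160% passed from 3 h to 6 h, 0% from 6 h to 12 h, 0% from 12 h to 24 h, 0.0653% from 24 h to 3 d, 0.0145% from 3 d to 7 d, 0.435% from 7 d to 14 d and 0% from 14 d to 21 d.

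**Figure D3:**
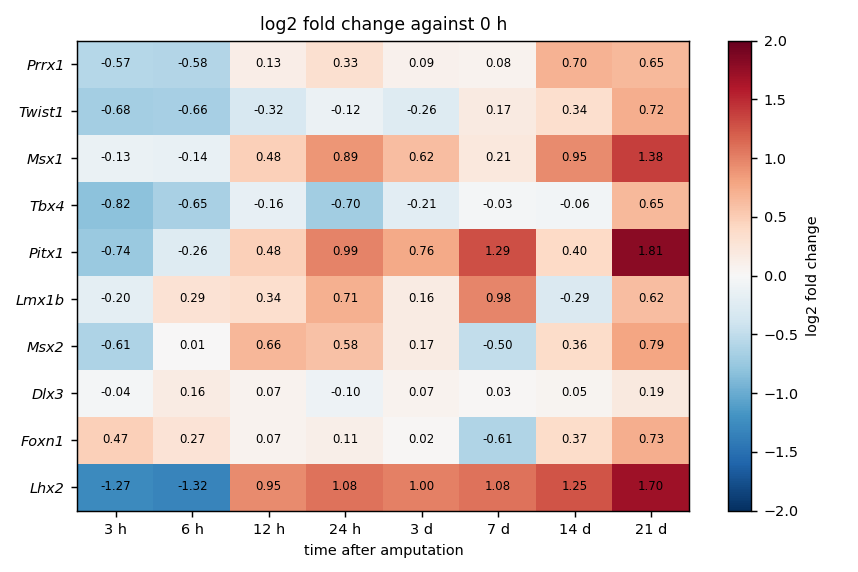
Log2 fold change of each gene (rows) at each later time (columns) against the 3 mice of 0 h, written in each cell and coloured from blue (lower) to red (higher), without the title-date period in the fit. At 21 d all 10 values are above 0, from 0.19 for Dlx3 to 1.81 for Pitx1, and none of the 80 passed the test. The share of all genes above 0 at 21 d was not computed.

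Other genes of the same programmes were read from lists, with the 10 genes left out. Their calls come from the fit without the title-date period, and whether they hold with it was not examined. Over all genes tested, 8.70% were higher and 5.05% lower late against early and 9.01% passed over the time course, and most of the counts for these lists are near those shares. Of 24 limb and digit mesenchyme factors tested, Prrx2 and Lhx9 (8.33%) were higher late and none was lower, and 0 passed over the time course by edgeR's F-test. Prrx2, the paralog of Prrx1, had a late to early log2 fold change of 1.24 (SE 0.28, adjusted p 0.00299), from a mean of 6.84 TPM at 0 h to 18.2 TPM at 21 d. Lhx9, a relative of Lhx2, had a log2 fold change of 0.85 (SE 0.25, adjusted p 0.0188). The most abundant of this list were Dlx5, at a mean of 79.5 TPM, and Tbx15, at 31.4 TPM. Its median log2 fold change late against early was 0.15.

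Of 24 nail, hair and epidermal factors, Grhl3 (4.17%) was lower late and none was higher, and 2 (8.33%) passed over the time course. Grhl3, a grainyhead factor of the epidermal barrier, fell by 0.36 on the log2 scale (SE 0.10, adjusted p 0.0187 in edgeR's test). It also passed over the time course (adjusted p 0.0220), as did En1, the factor of ventral limb ectoderm (0.0380), which was at 27.5 TPM at 0 h, 13.6 TPM at 3 h and 35.4 TPM at 21 d. The abundant members were Klf4, at a mean of 579 TPM, and Grhl1, at 250.5 TPM, and the median log2 fold change of the list was 0.02. Among 16 genes for partners of LIM-homeodomain, helix-loop-helix and homeodomain proteins, Tcf3 and Tcf4 were higher late (12.5%) and none was lower. These 2 are among the genes for E proteins that pair with Twist1. Tcf4 had a log2 fold change of 0.46 (SE 0.09, adjusted p 0.000479) and passed over the time course (0.00665), and Tcf3 had 0.34 (SE 0.11, adjusted p 0.0409). The LIM cofactor Ldb1 averaged 78.0 TPM and the chromatin gene Rbbp4 51.5 TPM. The list's median was 0.14. Of 12 hard keratin genes of nail and hair, Krt33a (8.33%) was higher late, with a log2 fold change of 1.03 (SE 0.33, adjusted p 0.0339), none was lower and 0 passed over the time course by edgeR's F-test. The median of the hard keratins was 0.39, and Krt83 at a mean of 2763 TPM and Krt81 at 1934 TPM led them. Prrx2, Lhx9, Tcf3 and Krt33a were named after their values were seen.

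Cell type markers moved across the same mice. Summed TPM of 11 fibroblast and mesenchyme markers ran from 1828 to 6688 in the early mice and from 5675 to 25170 in the late mice, with means of 19460 at 14 d and 20180 at 21 d. Of these 11 markers 8 were higher late and 1 was lower, and Col1a2 made up 27.5% of the sum. The 10 osteoblast and osteocyte markers summed to 260.8 to 823.9 TPM early and 1533 to 3923 TPM late, and 5 of them were higher late. The 9 neutrophil and macrophage markers tested summed to 99.7 to 393.7 TPM early and 133.8 to 1082 TPM late, with 5 higher late. Keratinocyte markers summed to 49100 to 89480 TPM early and 34030 to 66000 TPM late, with 4 of 12 lower late. The 7 endothelial markers summed to 69.1 to 184.5 TPM early and 123.8 to 257.1 TPM late, and 7 skeletal muscle markers to 0 to 100.1 TPM early and 2.64 to 19.5 TPM late. No marker was at 0 in all mice. The counts of markers higher or lower late also come from the fit without the title-date period. The part of these shifts in the values of Prrx1, Twist1, Lhx2 and Msx1 was not tested.

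**Figure D4:**
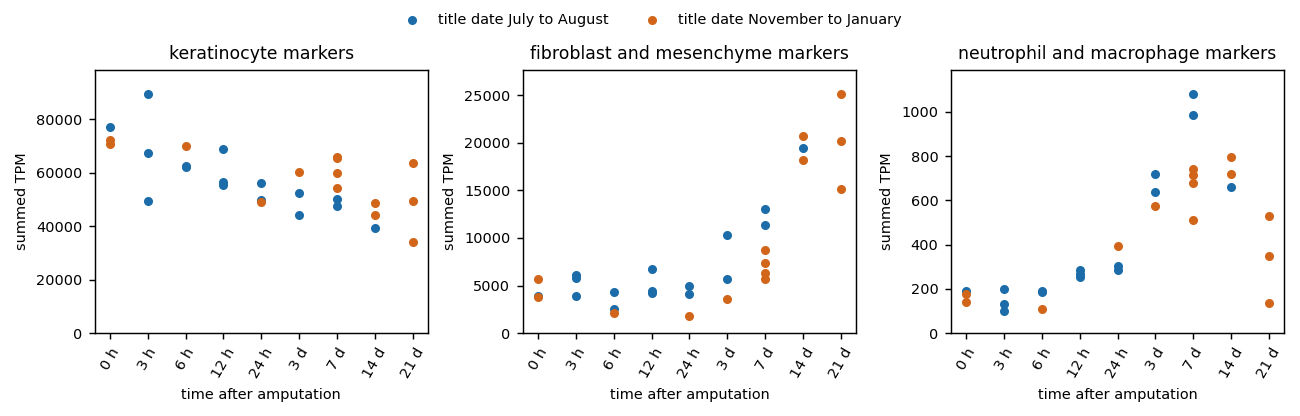
Summed TPM of 3 marker lists (vertical axes, each starting at 0) against time after amputation in 30 mice, coloured by the period of the title date. The fibroblast sum reaches means of 19460 and 20180 TPM at 14 d and 21 d from 4437 TPM at 0 h, while the keratinocyte sum goes from a mean of 73240 TPM at 0 h to 49080 TPM at 21 d.

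Across the 30 libraries the 10 genes were compared in 45 pairs on the log2(CPM + 1) scale (counts scaled to library size), as a description in which all points share time, period and depth. Pearson's r ran from -0.16 to 0.79 with a median of 0.18. Msx1 and Prrx1 were the closest pair, with r = 0.79 and Spearman's rho = 0.78, and with r = 0.79 within July to August and 0.88 within November to January. Next came Msx1 and Msx2 (r = 0.70), Lhx2 and Pitx1 (r = 0.67) and Msx2 and Foxn1 (r = 0.65). The Msx2 and Foxn1 pair was at 0.53 within July to August and at 0.82 within November to January. For Lhx2 and Twist1, both higher late, r was 0.47 over all mice but 0.29 and -0.05 within the periods.

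The genes whose levels most resembled each of the 10 over the 30 libraries were found by the same r among about 10856 tested genes with a mean of at least 5 CPM. For Prrx1 they were Cacna1g, a calcium channel gene (r = 0.88), Nfatc4 (0.85) and the fibroblast surface marker Thy1 (0.84), and for Msx1 they were Thy1 (0.85), Dsel (0.84) and Papss2 (0.84). Thy1 was thus shared by both lists. Msx2 was closest to Tbx18 (0.80) and to Sp8 (0.79), a factor of the limb ectodermal ridge, and then to Scarb1 (0.78). Foxn1 was closest to Csdc2 (0.89) and to the hair keratin-associated genes Krtap11-1 (0.83) and Krtap13-1 (0.83). Dlx3 was closest to Rasgef1b (0.71), Elf5 (0.71) and Slco5a1 (0.65), and Twist1 to Leprot (0.75), Slc35b3 (0.74) and Prr16 (0.74). Lhx2 was closest to Nap1l1 (0.79), Morf4l1 (0.74) and Gng11 (0.73), Tbx4 to Il17rd (0.78), A830010M20Rik (0.77) and Tbc1d16 (0.76), and Pitx1 to Tspan31 (0.74), Cdr2 (0.71) and Igfbp5 (0.71). Lmx1b, the lowest of the 10, had no gene above 0.60, the closest being Zc3h10 (0.60), Hlcs (0.57) and Cmtr1 (0.56).

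In GRCm38 with GENCODE M21 the remaining genes lie at chr13:53466884-53473074 (Msx2, minus), chr2:33560965-33640511 (Lmx1b, minus), chr11:95120119-95125296 (Dlx3, plus), chr11:78357577-78386558 (Foxn1, minus), chr11:85886422-85916097 (Tbx4, plus) and chr13:55825051-55836192 (Pitx1, minus). Exons of the genes other than Pitx1 overlap no exon of another gene. The windows at the starts of Msx2 and Foxn1 each held 1 TAATTA, 1 CCAAT and 1 GGGCGG, Tbx4 held 1 TATAAA, 1 GGGCGG and 6 CANNTG, and Lmx1b held 2 CCAAT.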

How the data were processed

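RNA-seq libraries (polyA RNA, LM-Seq, single-end) of 30 mice were read from tables of the whole series. The authors mapped reads to mouse genes of Ensembl v75 (mm10 in the labels) with Bowtie and estimated values per gene with RSEM 1.2.3, after base calling with CASAVA 1.8.2. The expected counts deposited by the authors are not normalized, and 78.1% of them are whole numbers. The TPM deposited by the authors are scaled within each mouse. Averages of scaled TPM per time point were also deposited and not used.

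Groups came from the time point in the labels. Expected counts were rounded and fitted in edgeR 4.0.16 (R 4.3.3) with TMM, the low-count filter by time point and quasi-likelihood tests, for 13793 of 20321 genes in 30 mice, with Benjamini-Hochberg adjustment within each comparison at 0.05. The late against early contrast is the mean of the 3 late coefficients minus that of the 5 early ones. Alternatives were DESeq2 1.42.0, its size factors, other filters, limma 3.58.1 on log2(TPM + 1) and log2(TPM + 0.1), the title-date period, left feet left out, and each mouse left out in turn. Fits within a period, fits without 21 d and the order of time point means with 1 mouse left out were added after the data were seen. The scripts were tested on simulated data. Tables were read in Python 3.11.15 (pandas 2.3.3).

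Total counts per mouse were 3167625 to 16277816. Up to 3 counts were taken as the limit of detection, which covers only the error of counting because copies made by PCR are not separate molecules. All 10 genes are described, with up to 4 genes per list that passed over the time course, the 2 most abundant, and the 3 genes most like each of the 10. The genes and lists were chosen with earlier results of these data known. Krt85 and Adgre1 were not analysed here.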

Additional observations from a re-analysis of the deposited data

Results flagged for a closer look

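At 7 d, 1 of 6 mice stood apart for Lhx2. Mouse 3 of 7 d, a left foot with a title date of November to January, was at 8.32 TPM, where the next highest was at 3.16 TPM. Its gap to the next mouse was 0.674 of the range of the group, above the 95% critical value of Dixon's test for 6 values. Chance flags about 1 group in 20, so 0.5 flags were expected among the 10 genes tested in this way. The same mouse had the lowest TPM of all 30 for Tbx4, at 0.02. Its library had 12199 genes with a count, the fewest of all 30, at a total of 6046501 counts, where the median total was 6103688. Without it, the late to early log2 fold change of Lhx2 was 1.21, with an adjusted p of 0.0247 in edgeR's test.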

How the results depend on the processing

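Of the 10 genes, the number that passed over the time course was 1, and it became 3 with the DESeq2 test (Prrx1, Msx2 and Lhx2), 2 with the title-date period as a covariate, 0 with limma on log2(TPM + 1), 0 with limma on log2(TPM + 0.1) and 0 without 21 d. With 1 mouse left out it ran from 0 to 1. The 0 calls against 0 h became 1 with the period as a covariate, Msx1 at 21 d. The 3 calls late against early became 1 without 21 d, 0 within July to August and 0 within November to January, and ran from 2 to 5 with 1 mouse left out, with 5 without mouse 2 of 3 h, mouse 3 of 7 d or mouse 3 of 21 d. Over all genes, 1243 calls over the time course became 2496 with the DESeq2 test, and 1896 late against early became 1184 without 21 d. The DESeq2 test also called Pitx1 late against early, with a log2 fold change of 1.078 and an adjusted p of 0.0268, and edgeR without the left feet called Msx1 (0.75, adjusted p 0.0450). Calls between successive times were 0 under all 8 alternatives run.

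Some late to early log2 fold changes turned sign, and none passed at the turned value. Msx2 was at -0.19 without 21 d, at -0.63 within November to January and at -0.071 to 0.19 with 1 mouse left out. Dlx3 was at -0.0056 with the period as a covariate, at -0.017 without the left feet, at -0.21 within November to January and at -0.020 to 0.14 with 1 mouse left out. Foxn1 was at 0.13 with the period as a covariate, at 0.049 and 0.053 with limma on log2(TPM + 1) and log2(TPM + 0.1) and at -0.099 to 0.078 with 1 mouse left out. Pitx1 was at -0.27 within July to August. The cause of these changes was not tested. The late increase of Prrx1 passed in all 9 alternatives run over both periods together, at 0.53 to 0.75.

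Lhx2, Lmx1b, Pitx1 and Tbx4 had between 1 and 4 libraries at 3 counts or fewer, with library totals from 3167625 to 6683398 counts, and changes below such counts are not detectable. No paired analysis was possible because the codes and dates in the sample titles, whose meaning the labels do not give, tie too few times together. Of 13 dates, 3 were shared between time points, which left the times in 6 sets with no date in common, and 0 h shared a date with 12 h alone. The titles of mouse 3 of 0 h and mouse 2 of 12 h hold the same code, date and foot. Whether these are 1 animal is not stated, and the fits took all 30 libraries as separate mice.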
